A study of Danio rerio with 8 samples.

Results

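The genes dusp6 (ENSDARG00000070914), etv4 (ENSDARG00000018303), etv5b (ENSDARG00000044511), fosab (ENSDARG00000031683) and egr1 (ENSDARG00000037421) were followed across zebrafish melanomas with activated nras. They were chosen by their gene IDs as genes that report the output of the RAS-MAPK pathway, and are 5 of the 22416 IDs in the deposited tables. The gene name table lists them as DUSP6, ETV4, etv5b, FOS and egr1. All 5 had a mean of at least 1 fpm, the authors' library-scaled read count, and all 5 were tested.

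RNA was sequenced from 8 tumours, 3 with the transgene Tg(mitfa:egfp) and 5 with Tg(mitfa:dgat1a). All 8 carried mitfa-/- and nras G12D in their strain background and were collected at an age of 10 to 12 weeks, so loss of mitfa and the activated nras were shared by controls and test tumours. The transgenes were delivered with miniCoopR, a vector that restores mitfa in mitfa mutants together with the gene of interest. Both transgenes are driven by the mitfa promoter, which acts in pigment cells, while the RNA came from whole tumours, so other cells of the tumour contribute to every value. egfp encodes a fluorescent protein and serves as the control, and dgat1a encodes an enzyme that makes triacylglycerol. No tumour without activated nras was part of the design, and ERK activity itself was not measured, so how far the 5 genes depend on RAS in these tumours was not tested.

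RAS proteins switch on a kinase relay of RAF, MEK and ERK. ERK then drives transcription in waves. Immediate early genes such as fosab and egr1 respond within minutes and need no new protein. Genes such as dusp6, etv4 and etv5b follow sustained signalling by receptor tyrosine kinases and RAS, and some of them act back on the pathway. In melanoma, activating mutations of NRAS or BRAF keep this relay on.

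The libraries held 20936089 to 26865735 reads, and 3 reads corresponded to 0.109 to 0.138 fpm. The symbol DGAT1 is paired with 2 IDs and the table does not say which is dgat1a. ENSDARG00000103503 measured 26.5 to 75.1 fpm in egfp tumours and 2223 to 4159.9 fpm in dgat1a tumours, and ENSDARG00000054914 stayed between 3.03 and 5.96 fpm in all 8. The pigment cell markers SOX10 and pmela were present in every tumour, at 667 to 1116 and 1398 to 13275 fpm. egfp replicate 1 stood apart in some markers of other cells. The keratinocyte markers krt4, krt5 and epcam were at 5.46, 16.7 and 0.881 fpm there. In the other 7 tumours they were at 105 to 581, 585 to 2473 and 32.0 to 150.3 fpm. cdh1, listed with them, was not low, at 361 fpm against 61.7 to 423 in the other 7. The summed level of these 4 markers was 384 fpm in egfp replicate 1 and 952 to 3309 in the other 7 tumours. That of 5 fibroblast marker IDs was 167 fpm against 620.0 to 1569.8. The neutrophil marker lyz was at 0 to 0.0441 fpm in egfp tumours and 0.146 to 1.49 fpm in dgat1a tumours. It averaged under 1 fpm and was not tested here. The authors' deposited table gives lyz an adjusted p of 0.0432, and calls 4.34% of its genes. No label names a clutch, date or library batch.

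Across the 5 genes, the groups differed most in etv5b, which was lower in every dgat1a tumour than in any egfp tumour. dusp6, fosab and egr1 had higher geometric means in dgat1a tumours and etv4 a slightly lower one, but for these 4 genes the groups overlapped. None of the 5 passed limma's threshold of an adjusted p under 0.05, which 9 of 16853 tested genes did (0.0534%). At an unadjusted p under 0.05 limma counted 1 of the 5, against 15.0% of all tested genes. The edgeR quasi-likelihood test on recovered reads called 0 of the 5, against 0.0178% of all genes, and counted 1 at an unadjusted p under 0.05, against 16.5%. DESeq2 called 1 of the 5, against 5.20% of all genes, or 2.85% when only genes lower in dgat1a tumours are counted. The gene was etv5b wherever 1 was counted.

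**Figure D1:**
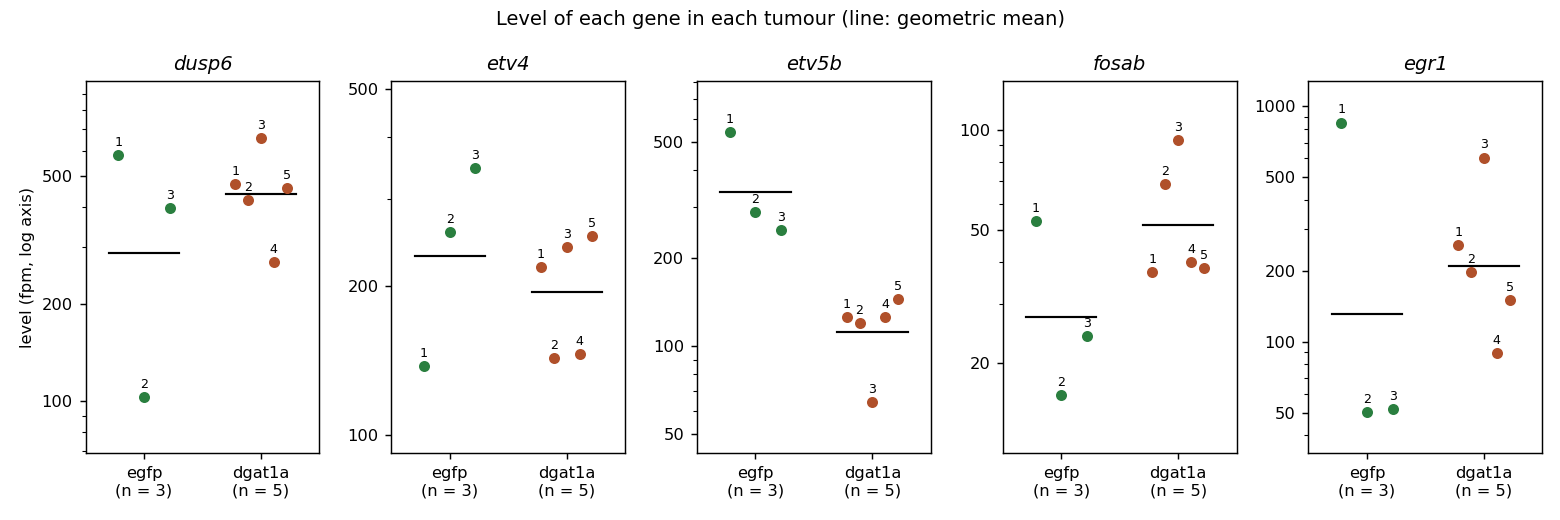
Level of each gene in fpm on a log axis, in 3 egfp and 5 dgat1a tumours. Each point is a tumour labelled with its replicate number and the line is the geometric mean of the group. etv5b separates the groups (249 fpm or above against 145 or below), while egr1 in egfp tumours spans 50.3 to 852.

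etv5b encodes a transcription factor of the PEA3 branch of the ETS family, whose transcription follows FGF and RAS-ERK signalling. Its level was 539, 287 and 249 fpm in egfp replicates 1 to 3. In dgat1a replicates 1 to 5 it was 126, 119.8, 64.4, 126 and 145 fpm. The lowest egfp tumour was thus above the highest dgat1a tumour, and the groups did not overlap. Such separation was found in 1 of the 5 genes and in 10.4% of all tested genes, or 5.95% when only genes lower in dgat1a tumours are counted. The means were 358 ± 157 fpm (SD, n = 3) and 116 ± 30.4 fpm (SD, n = 5). The log2 fold change of dgat1a over egfp tumours, computed from fpm + 0.5 as all limma values here, was -1.59 ± 0.33 (SE), with a 95% interval of -2.33 to -0.85. Its unadjusted p in limma was 0.000827, which ranked 89th of 16853, and its adjusted p was 0.156. The exact permutation test over all 56 splits of the tumours into 3 and 5 gave p = 0.0357 (two-sided, by doubling the smaller tail). This is the smallest value the doubled test can give. Any gene whose groups do not overlap receives it, so it is no separate evidence. On recovered reads the log2 fold change was -1.62 in both count tests, with an adjusted p of 0.13 in the edgeR quasi-likelihood test and 0.00106 in DESeq2. The authors' deposited table lists -1.49 ± 0.35 (SE) and an adjusted p of 0.0023, and calls 4.34% of its genes.

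egfp replicate 1 was the tumour with low krt4, krt5, epcam and fibroblast marker levels and the highest etv5b. Without it the log2 fold change of etv5b was -1.25 (limma adjusted p = 0.452). Of the 8 melanocyte marker IDs, 6 had log2 fold changes above 0, with a median of 0.27 and none past limma's adjusted threshold. At an unadjusted p under 0.05 in limma, 2 were higher and 1 lower, or 37.5%, against 15.0% of all tested genes. DESeq2, which called 5.20% of all genes, called pmela (adjusted p = 0.0455). The authors' deposited table gives pmela an adjusted p of 0.0687. The summed level of the 8 IDs was 5569 to 6846 fpm in egfp tumours. It was 7139 to 18381 fpm in dgat1a replicates 1, 2, 4 and 5, above every egfp tumour, and 3379.8 fpm in dgat1a replicate 3. In dgat1a replicates 1, 2, 4 and 5, pmela alone gave 9225, 13275, 3843 and 5508 fpm of this sum, against 1433 to 2373 fpm in egfp tumours. In dgat1a replicate 3 pmela was at 1398 fpm, while SOX10 stood at 974 fpm, the median of its group. ENSDARG00000056151, listed as TYRP1, was at 84.5 fpm there, against 259.9 to 2743 fpm in the other tumours. ENSDARG00000003732, listed as MITF, was at 733 fpm there and at 685 fpm in dgat1a replicate 2, against 1609 to 2851 fpm in egfp tumours. SOX10 overlapped between the groups, at 667 to 1116 fpm in egfp and 776 to 1095 fpm in dgat1a tumours. The part of melanocyte content in the etv5b difference was not tested. Of the 8 marker IDs, 1 separated the groups, in the direction of etv5b. That is 12.5%, against 10.4% of all tested genes, or 5.95% when only genes lower in dgat1a tumours are counted. It was ENSDARG00000003732, the higher of 2 IDs listed as MITF, the master regulator of melanocytes. This ID had 1609 to 2851 fpm in egfp tumours and 685 to 1565 fpm in dgat1a tumours. Its part in the etv5b difference was not tested, and whether reads of the rescue gene in the vector are counted on this ID is not given in the sources used here. In bulk tissue, fewer cells of a type and less RNA per cell cannot be told apart.

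etv4 encodes another factor of the PEA3 branch. It stood at 138, 257 and 346 fpm in egfp replicates 1 to 3 and at 219, 143, 240.3, 146 and 253 fpm in dgat1a replicates 1 to 5. The groups overlapped almost entirely, with both the lowest and the highest value in egfp tumours. Between the groups the log2 fold change was -0.25 ± 0.33 (SE), with a 95% interval of -0.98 to 0.49 (limma adjusted p = 0.738). egfp replicate 1 was the lowest of all 8 tumours for etv4 and the highest for etv5b. The ratio of etv4 to etv5b fpm accordingly ran from 0.257 in egfp replicate 1 to 1.39 in egfp replicate 3, and from 1.16 to 3.73 in dgat1a tumours. The direction for etv4 turned without egfp replicate 3, where the log2 fold change was 0.05 (limma adjusted p = 0.956).

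dusp6 encodes a phosphatase that removes the activating phosphates from ERK, and its transcription by ERK signalling forms a negative feedback loop. It measured 581, 103 and 398 fpm in egfp replicates 1 to 3. In dgat1a replicates 1 to 5 it measured 472, 422, 658, 269.7 and 458 fpm. egfp replicate 2 was the lowest tumour and dgat1a replicate 3 the highest, and the other 6 tumours lay within both groups' ranges. The log2 fold change was 0.61 ± 0.51 (SE), with a 95% interval of -0.55 to 1.76 (limma adjusted p = 0.585). This direction rested on egfp replicate 2: without it the log2 fold change was -0.13 (limma adjusted p = 0.843).

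fosab, a zebrafish counterpart of the mammalian gene for FOS, encodes a subunit of the AP-1 transcription factor and is a classical immediate early gene. It was at 53.2, 16.0 and 24.0 fpm in egfp replicates 1 to 3 and at 37.4, 68.5, 93.4, 40.1 and 38.5 fpm in dgat1a replicates 1 to 5. Only egfp replicate 1 reached the dgat1a range, exceeding 3 of the 5 dgat1a tumours. For fosab the log2 fold change was 0.90 ± 0.44 (SE), with a 95% interval of -0.07 to 1.88 (limma adjusted p = 0.36). Leaving out each tumour in turn gave 0.53 to 1.38, lowest without egfp replicate 2 and highest without egfp replicate 1, none of them past the threshold. In the latter case the limma unadjusted p was 0.00824 and the adjusted p 0.48.

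egr1 encodes a zinc finger transcription factor and is likewise an immediate early gene. It measured 852, 50.3 and 51.9 fpm in egfp replicates 1 to 3. In dgat1a replicates 1 to 5 it measured 257, 198, 605, 89.3 and 150.1 fpm. egfp replicate 1 was the highest of all tumours and the other two egfp tumours were the lowest, with every dgat1a tumour in between. For egr1 limma gave a log2 fold change of 0.68 ± 0.94 (SE), with a 95% interval of -1.42 to 2.79 (limma adjusted p = 0.743). The direction depended on the scale, since the arithmetic mean was 318 ± 462 fpm (SD, n = 3) in egfp tumours and 259.9 ± 202 fpm (SD, n = 5) in dgat1a tumours, and the count tests gave -0.27 (edgeR quasi-likelihood adjusted p = 0.911) and -0.28 (DESeq2 adjusted p = 0.904). Without egfp replicate 1 the log2 fold change was 2.03 (limma unadjusted p = 0.00879, adjusted p = 0.48). Without egfp replicate 2 it was -0.00 (limma unadjusted p = 0.999).

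**Figure D2:**
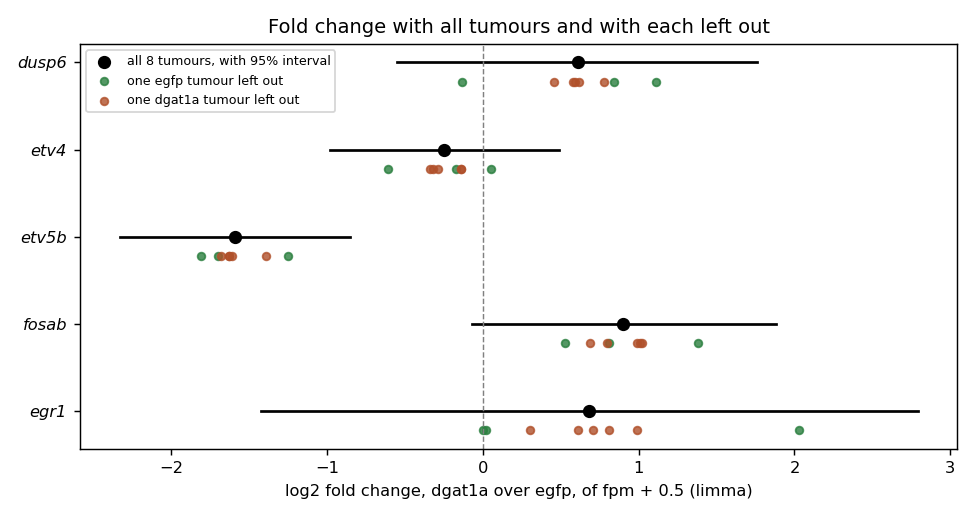
Log2 fold change of dgat1a over egfp tumours on the log2(fpm + 0.5) scale for the 5 genes. Black points are limma estimates from all 8 tumours with 95% intervals, and coloured points leave out 1 tumour each. The interval of etv5b (-2.33 to -0.85) lies wholly below 0 before adjustment for multiple testing, and that of egr1 (-1.42 to 2.79) is the widest.

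The genes also differed in how much they varied among tumours of the same group. On the log2(fpm + 0.5) scale the SD within groups was 1.59 for egr1, larger than in each of the 200 tested genes nearest to it in mean level, whose median was 0.37. It was 0.85 for dusp6 and 0.69 for fosab, larger than in 185 and 178 of their 200 nearest genes. For etv4 and etv5b it was 0.51 and 0.50, larger than in 145 and 150 of theirs. Within each of the 5 genes the egfp tumours, with n = 3, had the larger SD, from 0.59 against 0.46 for etv5b to 2.34 against 1.02 for egr1. The median SD over all tested genes was also larger in egfp tumours, at 0.44 against 0.41. The highest egr1 level was 16.9 times the lowest among egfp tumours and 6.77 times among dgat1a tumours, against 2.16 and 2.24 times for etv5b. The SD of dusp6 over all 8 tumours, 0.84, was 0.41 without egfp replicate 2.

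**Figure D3:**
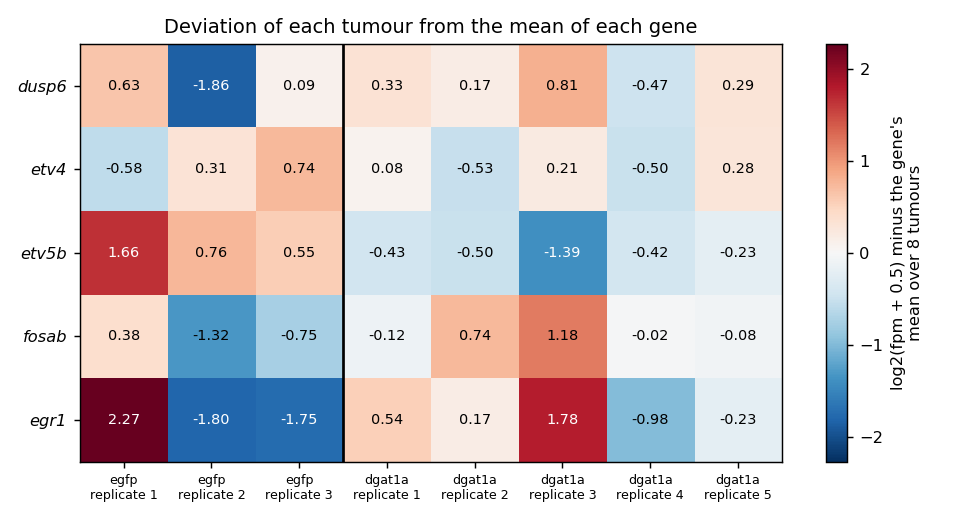
Deviation of each tumour from the mean of each gene over the 8 tumours, in log2(fpm + 0.5) units, with egfp tumours left of the black line. egfp replicate 1 and dgat1a replicate 3 are both high for egr1 (2.27 and 1.78) but lie at opposite ends for etv5b (1.66 and -1.39).

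Whether the genes moved together from tumour to tumour was examined over all 8 tumours for the 10 pairs, with exact permutation tests of the pairings, two-sided and adjusted over the 10 pairs by the Benjamini-Hochberg method. dusp6, fosab and egr1 tended to be high in the same tumours. For dusp6 and egr1, Pearson's r was 0.75 (exact permutation p = 0.0166, adjusted p = 0.0563) and Spearman's rho was 0.93 (exact permutation p = 0.00223, adjusted p = 0.0223). Their rank orders differed little: egfp replicate 2 was the lowest tumour for both, and dgat1a replicate 3 and egfp replicate 1 were the top 2 for both. Leaving out the 2 tumours farthest from the dusp6 median, egfp replicate 2 and dgat1a replicate 4, gave r = 0.89.

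For fosab and egr1, Pearson's r was 0.80 (exact permutation p = 0.0159, adjusted p = 0.0563) and Spearman's rho 0.74 (exact permutation p = 0.0458, adjusted p = 0.192), with r = 0.65 without egfp replicate 2 and dgat1a replicate 3. For dusp6 and fosab, Pearson's r was 0.78 (exact permutation p = 0.0169, adjusted p = 0.0563) and rho 0.64 (exact permutation p = 0.0962, adjusted p = 0.192), with r = 0.70 without egfp replicate 2 and dgat1a replicate 4. With the group means removed and values permuted within groups, the 3 correlations were 0.73, 0.85 and 0.75 for dusp6 with egr1, fosab with egr1 and dusp6 with fosab, and none passed (exact permutation adjusted p = 0.517, 0.319 and 0.517). The count of pairs past the adjusted threshold was 0 by Pearson's r, 1 by Spearman's rho, 1 without egfp replicate 3 and 3 without egfp replicate 1, of which 2 involved etv5b, whose groups stand apart.

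etv4 did not share this order. Its r with dusp6, fosab and egr1 was -0.16, -0.50 and -0.47 (exact permutation p = 0.749, 0.211 and 0.237, adjusted p = 0.855, 0.395 and 0.395), and rho was -0.38, -0.67 and -0.69 (exact permutation p = 0.36, 0.0831 and 0.0694, adjusted p = 0.514, 0.192 and 0.192). Without the 2 tumours farthest from the median of the first gene of each pair, r was -0.27, -0.31 and -0.19. For etv5b the groups form separate clusters of fewer than 6 tumours, so a pooled correlation cannot be read as a relation among tumours. With group means removed its r was 0.11 with dusp6, -0.64 with etv4, -0.02 with fosab and 0.24 with egr1 (exact permutation adjusted p from 0.517 to 0.965). The ratio of etv5b to fosab fpm within a tumour was 10.1 to 17.9 in egfp tumours and 0.690 to 3.76 in dgat1a tumours, with no overlap. That of dusp6 to etv5b was 2.14 to 10.2 in dgat1a tumours and below this range in every egfp tumour. Both ratios contain etv5b, whose groups already stand apart, so they are no separate evidence. The ratio of etv5b to egr1 overlapped, at 0.632 to 5.72 in egfp and 0.107 to 1.41 in dgat1a tumours. So did the ratios of the remaining pairs.

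**Figure D4:**
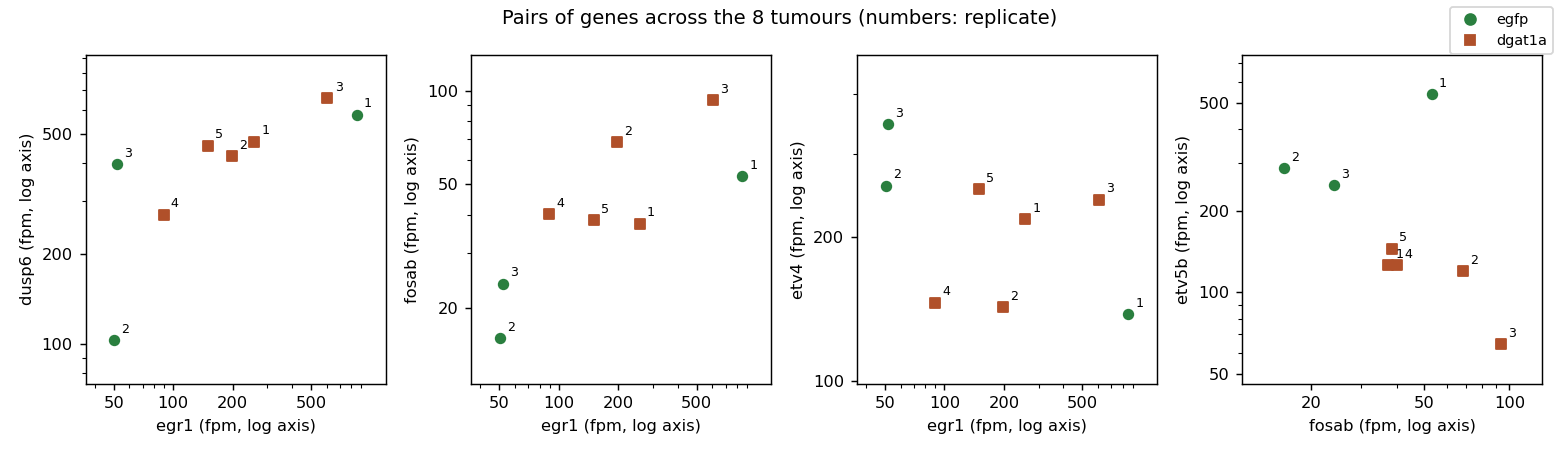
Levels of pairs of genes in fpm on log axes, with circles for egfp and squares for dgat1a tumours and numbers for replicates. dusp6 and fosab are high where egr1 is high (Pearson's r 0.75 and 0.80 on the log2 scale), etv4 is not (-0.47), and etv5b separates the groups along its axis.

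The genes whose log2 levels were most like each member were sought among 10463 other genes, those averaging 10 fpm or more. Likeness was Pearson's r over the 8 tumours and is given as a description. For egr1 these were CDKN1B (r = 0.969), which encodes a cyclin-dependent kinase inhibitor, and ier2a (r = 0.966), another immediate early gene. fosab ranked 86th and dusp6 168th in the egr1 order, while etv4 ranked 9567th. For fosab the nearest were cpeb4b (0.951), which encodes an mRNA-binding protein, and SLC38A2 (0.941), an amino acid transporter gene, with egr1 at rank 116 and dusp6 at rank 148. For dusp6 they were KIF2A (0.962), which encodes a microtubule-depolymerising kinesin, and WASHC3 (0.958), a subunit gene of the WASH complex. fosab and egr1 came at ranks 182 and 252. For etv4 they were PIGN (0.961), a gene of glycolipid anchor synthesis, and nt5dc2 (0.958). For etv5b they were OTUD3 (0.979), which encodes a deubiquitinase, and si:dkey-286j15.1 (0.973). Since the groups stand apart in etv5b, its likeness reflects the difference between groups as well as that among tumours.

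The rest of the pathway was read from 3 lists of 73 gene IDs in all, of which 69 were tested. None passed limma's adjusted threshold and 21 of 69 had an unadjusted p under 0.05, against 15.0% of all tested genes. The edgeR quasi-likelihood test called 0, with 20 of 69 at an unadjusted p under 0.05, against 16.5% of all genes. DESeq2 called 3 of 69, near its share of 5.20% over all genes. Among 29 tested feedback regulators and target genes, 22 had a fold change above 0 and 7 below, with a median log2 fold change of 0.58 against 0.04 for all tested genes. At an unadjusted p under 0.05, 8 were higher and 1 lower in dgat1a tumours, against 6.83% and 8.18% of all tested genes, which makes 31.0% of the list. The groups did not overlap in 5 higher and 1 lower, against 4.46% and 5.95% of all tested genes. Leaving out each tumour in turn moved the median between 0.41 and 0.67.

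FOSB and MYC had the largest changes of this list. FOSB, a gene for an AP-1 subunit related to FOS, was at 2.91, 7.14 and 2.93 fpm in egfp tumours and at 23.6, 136, 74.6, 4.92 and 15.6 fpm in dgat1a replicates 1 to 5, with only dgat1a replicate 4 inside the egfp range. The log2 fold change of FOSB was 2.71 ± 0.92 (SE; limma adjusted p = 0.246, DESeq2 adjusted p = 0.00209). The authors' deposited table gives it an adjusted p of 0.0069. ENSDARG00000007241, 1 of 2 IDs listed as MYC, a growth-promoting transcription factor, was at 289.9, 369 and 336 fpm in egfp tumours and at 139.9, 41.8, 111, 163 and 113 fpm in dgat1a tumours, with no overlap. Here the log2 fold change was -1.67 ± 0.40 (SE, limma adjusted p = 0.177, DESeq2 adjusted p = 0.00792), and the authors' deposited table gives an adjusted p of 0.0134. ENSDARG00000045695, the other ID listed as MYC, overlapped between the groups (log2 fold change -0.26, limma adjusted p = 0.816).

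Relatives of the members were looked at after their values were seen. etv5a, the paralogue of etv5b, stood at 82.2 to 130.4 fpm in egfp tumours and 123 to 141 fpm in dgat1a tumours (log2 fold change 0.31, standard error 0.19, limma adjusted p = 0.47), so its groups overlapped where those of etv5b did not. Among the other listed phosphatases of the DUSP family, DUSP1, DUSP5 and DUSP7 had groups that did not overlap, each higher in dgat1a tumours. Their log2 fold changes were 0.99, 1.33 and 0.64 (limma adjusted p = 0.249, 0.296 and 0.246). Over all tested genes, 4.46% were higher without overlap. The other 2 higher genes of the list without overlap were EGR2 (ENSDARG00000042826; 0.87, limma adjusted p = 0.275) and 1 of 2 IDs listed as JUNB (ENSDARG00000074378; 1.07, limma adjusted p = 0.282). ENSDARG00000104773, the other ID listed as JUNB, overlapped between the groups (log2 fold change 0.85, limma adjusted p = 0.479). In the remaining listed DUSP genes, DUSP2 and DUSP4, the groups overlapped, with log2 fold changes of 0.94 and 0.18 (limma adjusted p = 0.290 and 0.899). The sprouty genes, feedback inhibitors of receptor signalling, gave no common direction, with log2 fold changes of -0.04 for SPRY1, -0.57 for SPRY2 and 0.74 for SPRY4 (limma adjusted p from 0.428 to 0.968).

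Among 26 core pathway IDs, covering proteins from RAS to ERK with adaptors and RAS inhibitors, the median log2 fold change was 0.01, with 13 above and 13 below 0. At an unadjusted p under 0.05, 2 were higher and 3 lower, or 19.2% of the list, near the 15.0% of all tested genes. The 2 higher were PTPN11 and an ID listed as KSR1, and the 3 lower were ptpn11b, SHOC2 and GRB2 (ENSDARG00000105276). SHOC2, a scaffold gene of the RAS to RAF step, had a log2 fold change of -0.50 (limma adjusted p = 0.25). GRB2, an adaptor gene, had -0.79 (limma adjusted p = 0.242). The groups did not overlap in 4 of the 26, or 15.4%, against 10.4% of all tested genes. These were PTPN11, which was higher, and ptpn11b, SHOC2 and GRB2, which were lower. NRAS, listed for the gene activated in the strain background, was singled out with PTPN11, SHOC2 and GRB2 after its values were seen. It measured 19.0 to 25.2 fpm in egfp tumours and 21.1 to 25.1 fpm in dgat1a tumours (log2 fold change 0.07, standard error 0.19, limma adjusted p = 0.889). Whether reads of the mutant allele are counted on this ID is not given in the sources used here. ptpn11b, a gene for the phosphatase SHP2 that relays receptor signals to RAS, was at 96.2, 75.2 and 46.9 fpm in egfp tumours and at 23.3, 20.1, 45.0, 32.0 and 25.9 fpm in dgat1a tumours. Its groups did not overlap, and the log2 fold change was -1.30 ± 0.32 (SE; limma adjusted p = 0.193, DESeq2 adjusted p = 0.014). The authors' deposited table gives ptpn11b an adjusted p of 0.0185. PTPN11, the ID listed for its paralogue, was at 48.9 to 67.2 fpm in egfp and 78.3 to 107 fpm in dgat1a tumours, with no overlap (log2 fold change 0.63, limma adjusted p = 0.24). ENSDARG00000068714, 1 of 2 IDs listed as KSR1, a scaffold of the kinase relay, was at 2.25 to 2.86 fpm in egfp and 2.84 to 8.68 fpm in dgat1a tumours (log2 fold change 0.93, limma adjusted p = 0.279). The other KSR1 ID, ENSDARG00000030933, also overlapped between the groups (log2 fold change 0.39, limma adjusted p = 0.518).

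Of 14 tested receptor and ligand genes, 12 had fold changes above 0 and the median was 1.04, which became 0.57 without egfp replicate 1. Markers of some other cell types had the same direction. All 4 keratinocyte, 5 fibroblast, 4 macrophage and 4 skeletal muscle marker IDs were also above 0, with medians of 1.48, 0.69, 0.57 and 2.94. Both T cell markers were above 0 too, with a median of 0.86. Others went the other way: 2 of 3 endothelial markers were below 0, with a median of -0.09, and the erythrocyte marker hbaa1 had -1.37. Without egfp replicate 1 the keratinocyte and fibroblast medians were -0.20 and -0.13, and the macrophage and T cell medians 0.33 and 0.55. The endothelial median was then -0.27, and hbaa1 had -0.91. The skeletal muscle median stayed at 2.03 or above whichever tumour was left out. The part of other cells in the median of the receptor and ligand genes was not tested. Of the 14 receptor and ligand genes, 5 were higher and 2 lower at an unadjusted p under 0.05 in limma, or 7 of 14 against 15.0% of all tested genes. The 2 lower were FGFR1 under ENSDARG00000011190 (log2 fold change -1.18, limma adjusted p = 0.236) and ERBB2 (-0.79, limma adjusted p = 0.333), genes for receptor kinases. The other ID listed as FGFR1, ENSDARG00000011027, overlapped between the groups (log2 fold change 0.26, limma adjusted p = 0.824). The 5 higher were EGFR, KIT, kitlga, PDGFRA and MET, with log2 fold changes of 0.97 to 1.39 (limma adjusted p from 0.246 to 0.317). The groups did not overlap in 1 of the 14, KIT, or 7.14%, against 10.4% of all tested genes. This receptor tyrosine kinase of the melanocyte lineage was at 210.4 to 499 fpm in egfp and 518 to 996 fpm in dgat1a tumours (log2 fold change 0.97, limma adjusted p = 0.246). These 7 genes are named for their values. The largest changes were those of FGF10, a fibroblast growth factor gene, and fgfr4, a receptor gene for such factors. FGF10 had no read in a pair of egfp tumours, replicates 1 and 3, and 0.661 fpm in the other, and reached 56.4 fpm in dgat1a replicate 1 and 25.2 in replicate 4 against 0.138 to 3.05 in the other 3 (limma adjusted p = 0.389). fgfr4 was at 129 fpm in dgat1a replicate 1 and at 2.24 to 31.9 fpm in the other 7 tumours (limma adjusted p = 0.444). In dgat1a replicate 1 the summed level of 4 skeletal muscle marker IDs was 762 fpm, against 0.965 to 160.2 in the other 7. In dgat1a replicate 4, where FGF10 was also high, this sum was 2.41 fpm. In dgat1a replicate 5 it was 160.2 fpm, with FGF10 at 3.05 fpm. The part of muscle in the levels of FGF10 and fgfr4 was not tested.

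**Figure D5:**
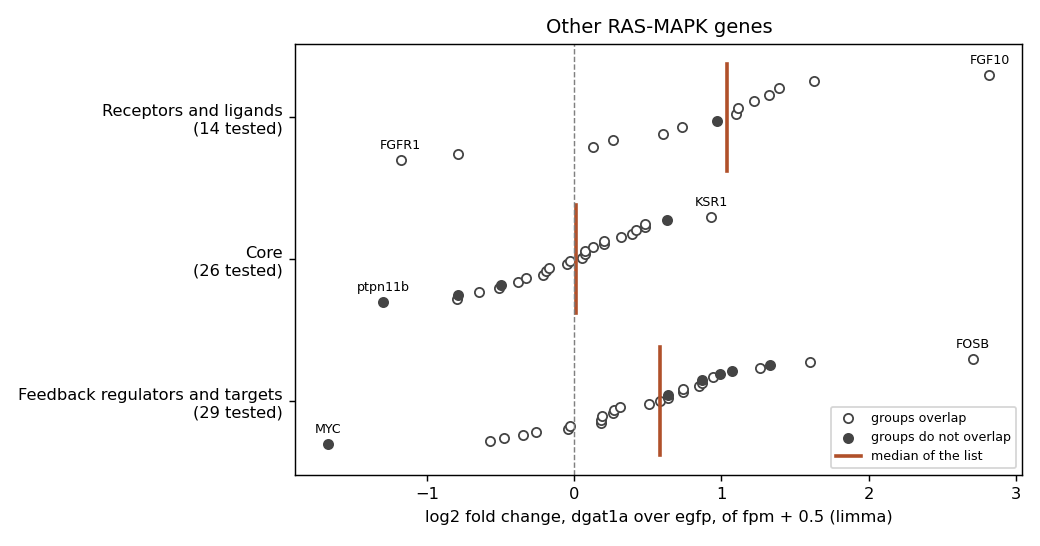
Log2 fold change of dgat1a over egfp tumours on the log2(fpm + 0.5) scale for the other RAS-MAPK genes tested, in 3 lists. Each circle is a gene ID, filled where the groups do not overlap, the coloured line is the list's median, and the lowest and highest gene of each list are named. The medians are 0.58, 0.01 and 1.04 from the bottom list to the top, against 0.04 for all tested genes, and no gene passed the adjusted threshold.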

How the data were processed

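Values came from 8 tumour libraries. The submitters' processing notes name STAR 2.5.3, featureCounts 1.6.2, DESeq2 1.14.1 and the build GRCz11; the annotation, strand setting and gene filter are not given in the sources used here, so reads from overlapping or antisense genes cannot be told apart. The authors deposited a per-million signal (fpm), a variance-stabilised table close to log2, and a table of their comparison with a mean signal, log2 fold change, a score (fold change over its standard error), p-value and adjusted p-value, per the file headers. In every fpm column 100% of values were whole multiples of 1 read (tolerance 0.01), so reads were recovered. Floors of 3 reads cover counting error only.

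limma 3.58.1 (R 4.3.3; intensity trend) was fitted to log2(fpm + 0.5) for 16853 genes that averaged 1 fpm or more, with the transgene as the 1 factor, two-sided, Benjamini-Hochberg adjusted over all tested genes at 0.05. edgeR 4.0.16 (TMM factors) and DESeq2 1.42.0 on recovered reads were alternatives, besides other pseudocounts, filters, scalings, weights, a replicate block and leaving out each tumour. The fits were tested on simulated data. No label says that tumours came from separate fish, so p-values measure the spread between these samples. Symbols came from a gene name table that covers 21017 of the 22416 IDs; a listed symbol was matched without regard to case, or without a suffix (a, b or a point and digit), taking every ID under it. This matched all but 5 listed symbols. The named genes are the members, the 2 largest changes in each list, and the 2 genes most like each member; others are said to be chosen later. The members and lists were chosen with earlier results of these data known. Part of the strain background, shared by all 8 tumours, is not reported here.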

Additional observations from a re-analysis of the deposited data

Results flagged for a closer look

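etv5b in dgat1a replicate 3 stood at 64.4 fpm, below the 119.8 to 145 fpm of the other 4 dgat1a tumours. On the log2 scale its gap to the nearest tumour was 0.767 of the group's range, above Dixon's critical value of 0.71 for 5 samples, which chance passes in about 1 group in 20. Of the 5 genes tested this way in dgat1a tumours, it was the 1 past that value. Without this tumour the log2 fold change of etv5b was -1.39 (limma adjusted p = 0.207). The same tumour was the highest of all 8 for dusp6 and fosab. It had the lowest sum of melanocyte markers, 3379.8 fpm, while SOX10 was at its group's median of 974 fpm. In that sum ENSDARG00000056151, listed as TYRP1, was at 84.5 fpm, against 259.9 fpm or above in every other tumour. The part of these in the low etv5b value was not tested.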

How the results depend on the processing

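Of 105 fold changes of the 5 genes under 21 other settings, 99 kept their direction and side of the threshold. The log2 fold change of etv5b stayed between -1.81 and -1.25 and passed with DESeq2 only (-1.62, adjusted p = 0.00106; the range of adjusted p over all settings was 0.00106 to 0.452). That of egr1 was -0.27 with the edgeR quasi-likelihood test and -0.28 with DESeq2. Leaving out each tumour gave -0.13 to 1.11 for dusp6, -0.61 to 0.05 for etv4, -0.00 to 2.03 for egr1, and an SD over tumours of 0.41 to 0.91 for dusp6. The count of genes past the threshold was 9 in limma, 3 with edgeR, 866 with DESeq2, 4 with dgat1a replicates 1 to 3 only, 0 with the replicate block, and 5 (without egfp replicate 1) to 55 (without egfp replicate 2) when a tumour was left out. The count in the pathway lists was 0, and 3 with DESeq2.

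Pairs of genes past the correlation threshold numbered 0, 1 with Spearman's rho and 0 to 3 when a tumour was left out. Correlations near 0 turned sign. That of dusp6 and etv4 lay between -0.28 and 0.16 when a tumour was left out, that of dusp6 and etv5b between -0.73 and 0.03 (0.11 with group means removed), that of etv4 and etv5b between -0.29 and 0.44 (0.14 by Spearman's rho), and that of etv5b and egr1 between -0.93 and 0.27 (0.24 with group means removed). The cause was not tested for any of these.

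Across genes, the deviations of egfp and dgat1a tumours that share a number correlated at 0.24, 0.07 and 0.01 for replicates 1, 2 and 3. Those with different numbers correlated at -0.25 to 0.20, so the value for replicate 1 was the highest of all. The numbers were not taken as pairs. With the replicate block on tumours 1 to 3 the log2 fold change of etv5b was -1.77 (limma adjusted p = 0.252), the same value as in these tumours without it (adjusted p = 0.363), and no call on the 5 genes changed. The 5 genes had at least 364 reads in each library, so depth did not limit them. FGF10 had 0 reads in egfp replicates 1 and 3, below the floor of 3 reads, and 15 reads in egfp replicate 2.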

Other observations

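Other immediate early genes were read by tumour after their values were seen. ier2a, one of the genes picked as most like egr1, shares its order of tumours through that choice. egr2a, a relative of egr1, was at 25.5 fpm in egfp replicate 1 and 19.0 fpm in dgat1a replicate 3, its 2 highest tumours, as they were for egr1. Other relatives did not have this order. EGR2 (ENSDARG00000042826) was at 1.28 fpm in egfp replicate 1, below all 5 dgat1a tumours at 1.61 to 2.84 fpm. EGR3 was highest in dgat1a replicate 2, at 19.2 fpm, and ier2b in dgat1a replicates 3 and 4, at 28.6 and 24.4 fpm.

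Some genes for AP-1 subunits shared their 2 highest tumours and others did not. FOSB, FOSL2 and both IDs listed as JUNB had their 2 highest tumours in dgat1a replicates 2 and 3, as did fosab. FOSL1 was at 70.5 fpm in egfp replicate 1 and 70.4 fpm in dgat1a replicate 2, its 2 highest tumours. JUN was highest in dgat1a replicate 3, at 106 fpm, followed by egfp replicate 2 at 61.4 fpm.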
